A study of Mus musculus with 15 samples.

Results

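Interferon-stimulated genes are described here in mouse liver: 38 genes taken from a fixed list of symbols, out of 35540 gene symbols in the deposited table. Each gene's value is the sum of its transcripts, and all 38 members passed the filter on low counts, as did 13916 genes in all. Bulk RNA was sequenced from whole liver of mice held on a high-fat diet for 8 weeks, in 15 libraries of 3 genotypes with 5 libraries each. WT livers carried neither change, C247S KI livers carried the knock-in of the C247S substitution in TXNIP, and KO livers carried a knockout of Txnip; the diet was common to all groups, so there is no group on another diet. Txnip encodes an arrestin-fold protein that binds thioredoxin through a cysteine, the residue that the knock-in changes, and the title of the series asks whether that covalent bond is needed for hepatic insulin resistance under the diet. Age, sex, zygosity and the construction of both alleles are not given in the sources used here; nothing states that libraries are separate animals, and p-values here refer to the spread among libraries, which may be technical in part.

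Type I interferons bind the receptor pair IFNAR1 and IFNAR2, whose kinases JAK1 and TYK2 activate a complex that contains STAT2 and IRF9. The complex binds the interferon-stimulated response element (ISRE) in the promoters of target genes, whereas interferon gamma acts through the gamma-activated site (GAS). The targets include sensors of foreign nucleic acid, antiviral effectors and the factors of the pathway itself, and in liver both hepatocytes and resident macrophages respond.

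The ISRE is shown first because it is the sequence through which most members are known to answer interferon. The searched core was GAAANNGAA and the searched GAS was TTCNNNGAA, on both strands, in windows from 250 bases before to 50 bases after the annotated start (RefSeq, GRCm38.p6). Windows were held for 27 of the 38 members. The ISRE core was found in 16 of these 27 (59.3%), against 2638 of 27025 genes with a window (9.76%), and the GAS in 6 (22.2%), against 2582 (9.55%). Matches of both motifs may overlap, and a match describes letters only. Stretches around the cores are printed for the members with several cores before the start and for Stat2, with capitals on the ISRE core; a core read on the other strand appears as its reverse complement.
Ifit1, chr19:34640777-34640816, plus strand: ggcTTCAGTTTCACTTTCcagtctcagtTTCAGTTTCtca
Ifit3, chr19:34583358-34583397, plus strand: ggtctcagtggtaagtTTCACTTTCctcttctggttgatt
Ifit3b, chr19:34607754-34607793, plus strand: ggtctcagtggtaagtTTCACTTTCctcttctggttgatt
Isg15, chr4:156200867-156200906, minus strand: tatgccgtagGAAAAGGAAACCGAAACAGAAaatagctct
Oas1a, chr5:120907526-120907565, minus strand: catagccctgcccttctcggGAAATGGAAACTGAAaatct
Oas1g, chr5:120887614-120887653, minus strand: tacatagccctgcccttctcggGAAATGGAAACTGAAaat
Oas3, chr5:120777708-120777747, minus strand: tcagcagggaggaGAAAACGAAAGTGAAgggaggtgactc
Bst2, chr8:71537576-71537615, minus strand: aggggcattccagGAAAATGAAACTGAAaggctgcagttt
Stat2, chr10:128270261-128270300, plus strand: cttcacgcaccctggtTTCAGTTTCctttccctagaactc
The stretches of Ifit3 and Ifit3b are the same letter for letter, and the cores of Oas1a and Oas1g lie in the same surrounding letters. In Isg15 the 3 cores overlap in a single run, whereas in Ifit3 they start 155, 121 and 102 bases before the start.

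The 2 members that passed the test in a comparison differ in this respect. Ifit3 has 3 ISRE cores in its window and Irf7 has 0 of either motif, which says only that these letters are not in that window. Their upstream sequences are given in full, for Irf7 up to the first base that GENCODE annotates as an Irf7 exon; no annotated gene overlaps either region.
Ifit3, chr19:34583279-34583528, plus strand: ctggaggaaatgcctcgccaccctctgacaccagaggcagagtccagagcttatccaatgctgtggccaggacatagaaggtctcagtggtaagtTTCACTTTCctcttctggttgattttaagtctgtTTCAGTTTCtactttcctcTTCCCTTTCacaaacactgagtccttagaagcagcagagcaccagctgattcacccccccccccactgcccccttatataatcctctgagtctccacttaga
Irf7, chr7:141266482-141266674, minus strand: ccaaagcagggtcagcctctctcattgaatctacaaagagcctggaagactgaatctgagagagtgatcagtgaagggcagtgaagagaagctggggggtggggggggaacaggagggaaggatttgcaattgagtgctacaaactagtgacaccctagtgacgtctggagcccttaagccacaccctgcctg
Neither motif was found for Irf9, Oasl1, Oasl2, Cmpk2, Dtx3l, Xaf1 and Lgals3bp either. Members without a window were Oas1b, Oas2, Mx1, Mx2, Dhx58, Usp18, Parp9, Parp14, Zbp1, Rtp4 and Ifi27.

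**Figure D1:**
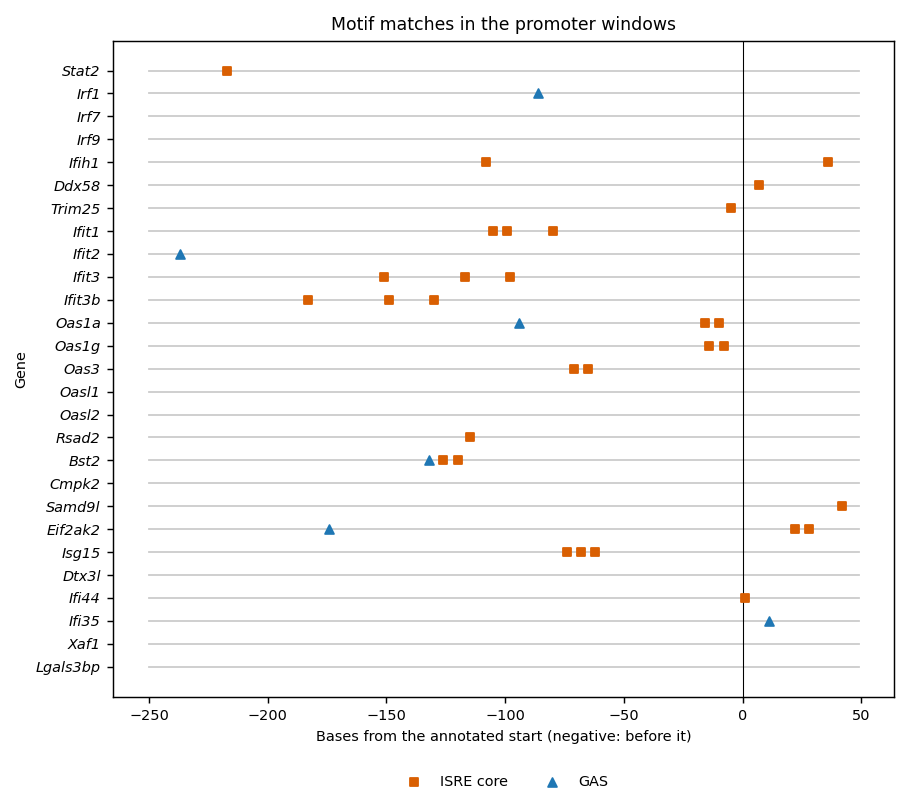
Midpoints of ISRE cores (squares) and GAS matches (triangles) in the windows of 27 members, by their distance in bases from the annotated start. The windows run from 250 bases before to 50 bases after the start, so most positions searched lie before it. Irf7 has no match of either motif.

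Library totals lay between 18047577 and 23379940 estimated counts, and the 38 members together took 0.06753% to 0.1058% of a library's counts. Txnip, in CPM (counts scaled to library size), averaged 222 ± 56.2 in the WT, 192 ± 65.7 in the C247S KI and 99 ± 24.9 in the KO libraries (SD, n = 5 each), so its transcripts were lower in the KO livers (log2 fold change -1.17, SE 0.24, edgeR adjusted p = 0.00887) but not absent. WT 1, C247S KI 5 and KO 5 lay at the ends of the second principal component of all genes (-43.88, 35.57 and 38.7). An earlier analysis of these data set WT 1, C247S KI 3 and C247S KI 5 apart. KO 5 bears on the members and is described with and without below. Numbers in the sample titles ran from 1176 to 1288 in KO and from 3082 to 3154 in the other libraries; the labels do not say what they stand for, and whatever they mark cannot be told apart from the KO genotype.

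At the RNA level the members covered a wide range. Per length (TPM, counts divided by annotated transcript length and scaled to an equal total, mean of 15 libraries), Bst2 stood at 197 TPM, Ifi27 at 162 and Lgals3bp at 53.4, and the next were Stat2 at 32.1 and Ifi35 at 31.9. At the other end lay Oas3 at 0.875 TPM, Ifit2 at 1.21 and Ifi44 at 1.43. Bst2 encodes tetherin, which holds budding viruses at the cell surface, and Lgals3bp a secreted galectin-binding glycoprotein.

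The interferons themselves had almost no counts. Of 21 ligand genes (the alpha family, beta, epsilon, kappa, zeta, gamma and lambda) 5 had any count, 13 counts over all 15 libraries and at most 3 in a library, and 0 passed the filter. No comparison of ligands between genotypes was possible at this depth.

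Between C247S KI and WT livers no member differed by more than the test allows for the spread between libraries. With edgeR's quasi-likelihood test over all genes, 0 of 38 members passed an adjusted p of 0.05 (background 0.0862% of 13916 genes), and DESeq2 and limma-voom also gave 0. At an unadjusted p under 0.05 there were 3 members, Ifit3, Cmpk2 and Bst2, all lower in C247S KI (7.89% of members against 9.85% of all genes). No member separated the 5 libraries of either group from the other (1.32% of all genes did). The median log2 fold change of the members was 0.08 against 0.00 over all genes, with a range from -0.48 to 0.79 and a median SE of 0.216.

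In KO against WT livers 1 of 38 members passed, Irf7, which rose, and 0 fell (2.63% of members against a background of 6.75%). Against C247S KI, Irf7 and Ifit3 rose in KO and 0 members fell (5.26% against 10.3%). No member separated KO from WT or from C247S KI without overlap, where 9.6% and 9.67% of all genes did. Members with a positive log2 fold change numbered 29 of 38 in KO against WT (76.3%, all genes 48.7%; median 0.19 against -0.01) and 25 of 38 in KO against C247S KI (65.8%, all genes 46.7%; median 0.17 against -0.03). At an unadjusted p under 0.05 there were 9 members in each of these comparisons, 8 of them higher, which is 23.7% of members against 23.3% and 27% of all genes. Both comparisons use the same KO libraries, and each pair of comparisons shares a group. Without KO 5 the counts were 0 of 38 against WT, with a median of 0.08, and 1 of 38 against C247S KI, with a median of 0.05; the member that passed there was Ifit3. The share of all genes that passed was also lower without KO 5, at 3.88% and 6.67%. Without KO 1 the counts were 4 of 38 against WT, with a median of 0.26, where 5.4% of all genes passed. Against C247S KI they were also 4 of 38 without KO 1, with a median of 0.23, where 9.31% of all genes passed.

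**Figure D2:**
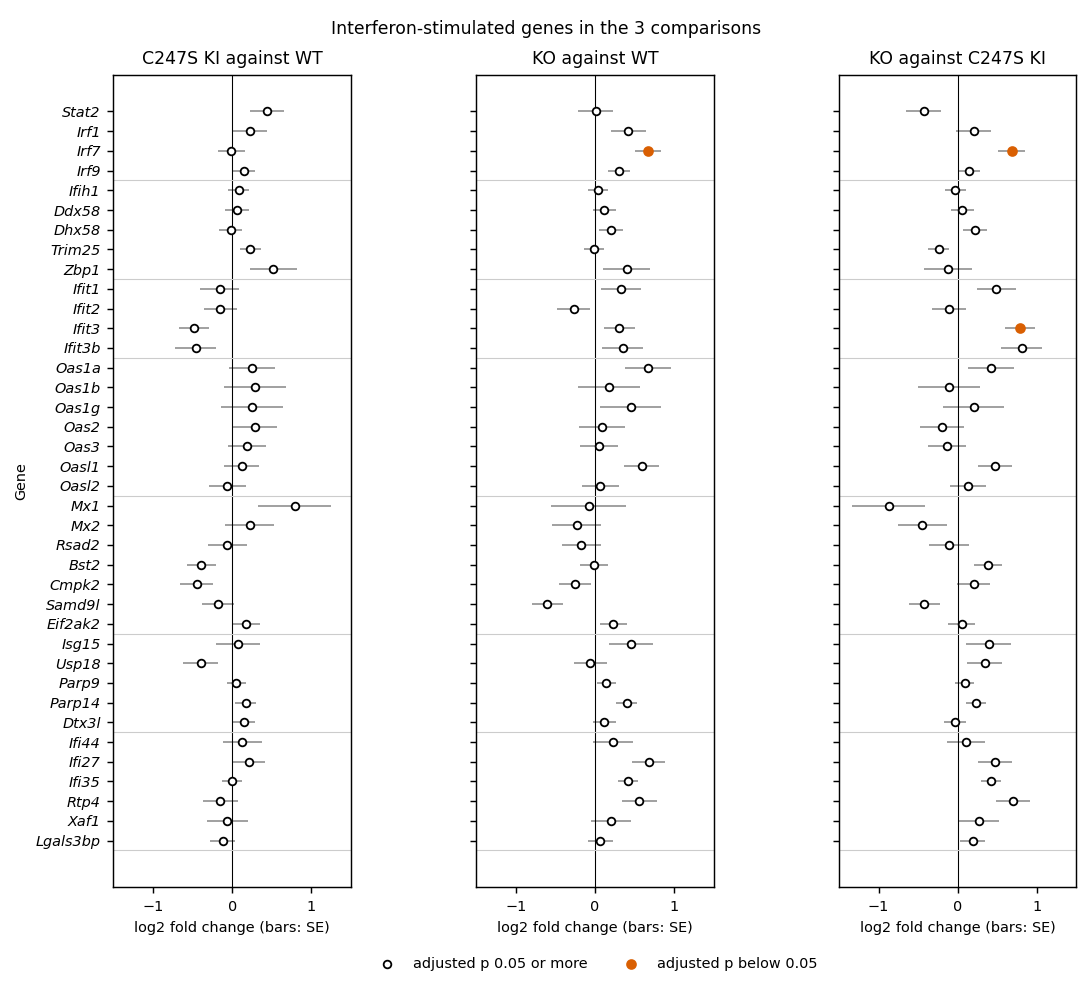
Log2 fold changes of the 38 members, ordered by role, in the 3 comparisons; bars are the SE and filled points passed an adjusted p of 0.05. Irf7 is filled in both KO comparisons, Ifit3 in KO against C247S KI, and no point is filled in C247S KI against WT.

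Among the 4 transcription factors, Irf7 was the one that passed. IRF7 is the factor that amplifies type I interferon production and is itself induced by interferon; the gene lies on chromosome 7 from 141262706 to 141266481 (GRCm38, minus strand). Its CPM in the WT libraries 1 to 5 was 27.4, 23, 28.9, 20.8 and 20. In C247S KI it was 21, 29.4, 28.3, 22.7 and 18.2, and in KO 27.9, 42, 32.6, 37.4 and 51.9. All KO libraries but KO 1 lay above every other library, and KO 1 lay inside the range of both other groups. In WT the mean was 24 ± 3.96 CPM, beside 23.9 ± 4.77 for C247S KI and 38.3 ± 9.23 for KO (SD, n = 5). Irf7 rose in KO by a log2 fold change of 0.67 against WT (SE 0.17, edgeR adjusted p = 0.0261) and 0.68 against C247S KI (SE 0.17, edgeR adjusted p = 0.0182). The log2 difference of C247S KI from WT was -0.01 (SE 0.17, edgeR adjusted p = 0.988). The call against WT was lost without any of WT 2, WT 4, WT 5, KO 2 and KO 5 (edgeR adjusted p = 0.0539, 0.0656, 0.0509, 0.0612 and 0.0733), with log2 fold changes of 0.54 to 0.67, and the call against C247S KI without C247S KI 1 or KO 5 (0.052 and 0.0538). Counting protein-coding transcripts alone, which held 81.4% of the Irf7 counts, gave 0.68 against WT with an edgeR adjusted p of 0.0692.

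With edgeR, DESeq2 or limma-voom, Stat2, Irf9 and Irf1 did not pass in any comparison. Stat2, a part of the ISRE-binding complex, had 35.7, 44.8, 29.8, 33.2 and 71.8 CPM in WT libraries, 46.2, 48.1, 60.6, 54.5 and 81.8 in C247S KI ones and 41.7, 40.7, 45.7, 34.6 and 54.2 in KO. The groups overlapped widely and the fifth library of each was its highest. Its log2 difference of C247S KI from WT was 0.44 (SE 0.22, edgeR adjusted p = 0.531). It was 0.70 without WT 5 (0.136), 0.28 without C247S KI 5 (0.807), and 0.15 once C247S KI 3, C247S KI 5 and WT 1 were all left out (0.856). Irf9, the DNA-binding subunit of that complex, averaged 26.6 ± 4.92, 29.6 ± 2.99 and 32.6 ± 5.77 CPM in the same order of groups. Irf1, a factor that both interferon types induce, averaged 17.7 ± 3.82, 20.6 ± 4.9 and 23.7 ± 9.18 CPM, with 38.9 in KO 2 alone above 28.1.

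The 5 sensors of nucleic acid and their regulators had no call with edgeR, DESeq2 or limma-voom, and their log2 fold changes lay between -0.02 and 0.52 in C247S KI against WT, -0.01 and 0.40 in KO against WT, and -0.24 and 0.22 in KO against C247S KI. Ifih1 (MDA5) and Ddx58 (RIG-I), the cytoplasmic RNA helicases that start the response to viral RNA, averaged 25.5 ± 3.77 and 16.7 ± 3.51 CPM in WT and 26.3 ± 3.83 and 18.1 ± 1.9 in KO. Dhx58 (LGP2) had the narrowest spread of any member within a group, 10.5 to 11.1 CPM in the WT libraries, and reached 16.2 in KO 5. Trim25, the ubiquitin ligase that acts on RIG-I, had 63.2, 74.4, 73.3, 60.2 and 82.2 CPM in WT libraries, 79.6, 78.7, 66.5, 96.5 and 93.4 in C247S KI ones and 61.2, 78.2, 70.3, 59.7 and 81.9 in KO. The C247S KI libraries reached higher than the others but overlapped both groups (log2 0.23 against WT, SE 0.13, edgeR adjusted p = 0.568). Zbp1, a sensor of Z-form nucleic acid, lay between 2.83 and 7.01 CPM in all libraries except C247S KI 3, at 10 CPM.

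Some IFIT proteins bind foreign RNA at its 5′ end and block its translation. The Ifit genes lie in a cluster on chromosome 19. Ifit3 (34583531 to 34588731, plus strand) had 14.7, 11.7, 12.4, 12.4 and 12.1 CPM in WT libraries, 9.14, 12.3, 8.1, 7.36 and 8.48 in C247S KI ones and 10.8, 15.3, 11.7, 16.7 and 23.8 in KO. C247S KI libraries other than C247S KI 2 lay below every other library, and KO 5 was the highest. Ifit3 rose in KO against C247S KI by a log2 fold change of 0.79 (SE 0.19, edgeR adjusted p = 0.0149), and by 0.58 without KO 5 (0.038). Leaving out WT 1, C247S KI 3 and C247S KI 5 gave 0.70 (0.0623). The differences of C247S KI and KO from WT were -0.48 (SE 0.19, edgeR adjusted p = 0.448) and 0.31 (SE 0.19, edgeR adjusted p = 0.34), so the gap between KO and C247S KI is made of a lower mean on one side of WT and a higher mean on the other, and neither part passed.

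Ifit3b is a near copy of Ifit3, and 61.8% of the 31-base words of Ifit3 transcripts also occur in Ifit3b, so how reads were divided between them is uncertain. It had 4.55, 2.91, 2.27, 2.94 and 2.39 CPM in WT libraries, 2.66, 3.18, 1.25, 1.74 and 2.05 in C247S KI ones and 2.92, 4.76, 2.84, 3.58 and 5.08 in KO, a log2 difference of 0.81 between KO and C247S KI (SE 0.26, edgeR adjusted p = 0.0582), which DESeq2 called (0.82, adjusted p = 0.026). In WT the sum of both genes averaged 15.6 ± 2.04 CPM, beside 11.2 ± 2.58 for C247S KI and 19.5 ± 6.04 for KO (SD, n = 5), and it rose by 0.79 in KO against C247S KI (SE 0.19, edgeR adjusted p = 0.0146). The difference was thus as large with the copies summed. Ifit1 averaged 7.61 ± 2.32, 6.79 ± 0.987 and 9.54 ± 4.05 CPM in WT, C247S KI and KO, with 15.9 in KO 5. Ifit2 averaged 3.26 ± 0.609, 2.91 ± 0.794 and 2.7 ± 0.538 CPM, the only IFIT gene whose KO mean was below the others.

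**Figure D3:**
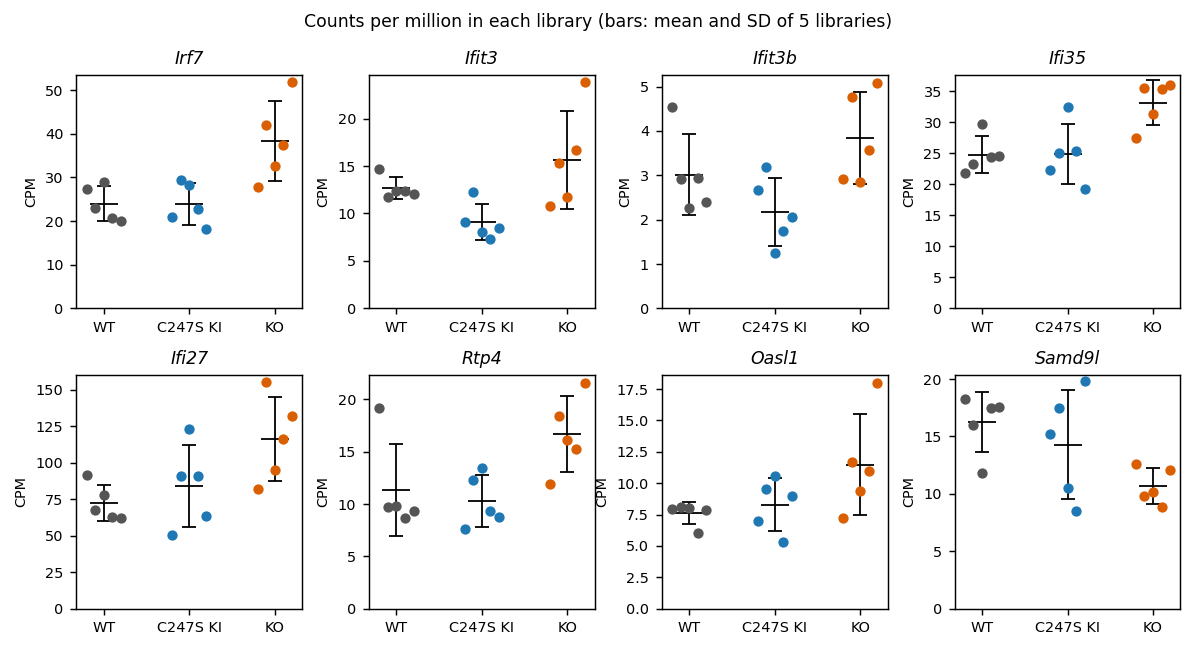
CPM of 8 members in each library, with the mean and SD of 5 libraries per genotype. Irf7 lies between 27.9 and 51.9 CPM in KO and between 18.2 and 29.4 elsewhere, and KO 5 is the highest KO library for all but Ifi27 and Samd9l.

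The 7 oligoadenylate synthetase genes encode enzymes, and related proteins, that sense double-stranded RNA; the active enzymes make the messenger that switches on RNase L. With edgeR, DESeq2 and limma-voom 0 passed in any comparison; all 7 had a positive log2 fold change in KO against WT, from 0.05 to 0.67, and 4 of 7 did in KO against C247S KI. Oas1a had 3.78, 4.03, 2.9, 3.52 and 2.14 CPM in WT libraries, 2.92, 4.43, 6.62, 2.92 and 2.72 in C247S KI ones and 2.72, 7.07, 4.22, 4.82 and 7.32 in KO. KO 2 and KO 5 lay above every WT and C247S KI library, whereas KO 1 lay below all WT libraries but WT 5 (log2 0.67 against WT, SE 0.29, edgeR adjusted p = 0.168). Oas1g, with 54.6% of its 31-base words in Oas1a, had 0.569, 1.8, 1.83, 0.577 and 0.611 CPM in WT libraries, 0.827, 2.17, 1.43, 0.787 and 1.3 in C247S KI ones and 1.21, 1.94, 0.918, 1.45 and 1.98 in KO. WT libraries of this gene had either low or high values with none between. Of Oas1g counts 19.4% fell on protein-coding transcripts and 47.4% on a transcript of the nonsense-mediated decay class. Summed, Oas1a and Oas1g gave a log2 difference of 0.63 in KO against WT (SE 0.28, edgeR adjusted p = 0.177). 

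Oasl1, which in mice restrains translation of Irf7 mRNA, had 7.97, 8.14, 8.01, 6.06 and 7.83 CPM in WT libraries, 6.97, 9.53, 10.6, 5.34 and 9.02 in C247S KI ones and 7.26, 11.7, 9.36, 11 and 18 in KO. All KO values but that of KO 1 exceed all WT values, and KO 5 is far above the rest; the log2 difference was 0.59 (SE 0.22, edgeR adjusted p = 0.106). It was 0.38 without KO 5 (0.272), and 0.73 without KO 1, where it passed (0.0468). Oas1b, annotated as a polymorphic pseudogene, had the widest spread of any member within WT, at 1.35, 2.04, 3.28, 0.289 and 2.54 CPM; it had 1.87, 1.97, 2.22, 2.08 and 3.51 in C247S KI and 1.81, 1.76, 2.57, 1.55 and 3.15 in KO. The low value of WT 4 makes that spread. Oas2, Oas3 and Oasl2 had group means between 2.12 and 4.85 CPM. Of Oasl2 counts 25.5% fell on protein-coding transcripts.

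Of 7 other antiviral effectors 0 passed with edgeR in any comparison. In KO against WT 6 of them had a negative log2 fold change, with a median of -0.17, and in KO against C247S KI 4 did, with a median of -0.11. Samd9l, an interferon-induced inhibitor of translation, had 18.3, 16, 11.8, 17.5 and 17.6 CPM in WT libraries, 15.2, 17.5, 10.5, 8.49 and 19.8 in C247S KI ones and 12.6, 9.8, 10.2, 8.86 and 12.1 in KO. WT libraries other than WT 3 lay above all KO libraries; the log2 difference was -0.60 (SE 0.20, edgeR adjusted p = 0.0773). It is the only member at an unadjusted p under 0.05 (0.00791) that was lower in KO than in WT. DESeq2 called it lower. 

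Bst2 had 121, 97.8, 143, 109 and 88.6 CPM in WT libraries, 77.3, 77, 126, 86.5 and 60.6 in C247S KI ones and 95.1, 139, 97.3, 123 and 102 in KO. Every C247S KI library except C247S KI 3 lay below all WT and KO libraries, and the log2 difference from WT was -0.39 (SE 0.18, edgeR adjusted p = 0.504), and between -0.56 and -0.28 with 1 library left out. Cmpk2, a mitochondrial nucleotide kinase next to Rsad2 on chromosome 12, had 7.81, 4.35, 4.25, 4.91 and 5.8 CPM in WT libraries, 3.92, 4.81, 3.31, 2.87 and 4.85 in C247S KI ones and 3.73, 3.88, 4.36, 4.61 and 6.2 in KO (log2 -0.45 in C247S KI against WT, SE 0.21, edgeR adjusted p = 0.5). WT 1 was the highest library. Rsad2, viperin, ranged from 7.02 to 22.2 CPM within KO alone, with KO 5 at the top. Eif2ak2, the double-stranded RNA kinase PKR, averaged 11.1 ± 2.39, 12.6 ± 1.55 and 13.0 ± 3.01 CPM in WT, C247S KI and KO.

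Mx1 and Mx2 encode dynamin-like GTPases that trap viral particles, and Mx2 is annotated here as a polymorphic pseudogene. Mx1 had 1.76, 2.28, 1.45, 0.635 and 3.87 CPM in WT libraries, 2.87, 3.37, 1.54, 1.29 and 8.11 in C247S KI ones and 1.76, 1.34, 2.2, 1.5 and 2.69 in KO. C247S KI 5 holds the highest value and makes the widest spread of any member in that group; the log2 difference of C247S KI from WT was 0.79 (SE 0.46, edgeR adjusted p = 0.582). Only 6.39% of Mx1 counts fell on protein-coding transcripts, and 91.9% fell on a transcript of the nonsense-mediated decay class. That transcript held 192 counts in C247S KI 5 and 8 to 75 in the other libraries. Retained-intron transcripts took 7.99% of the members' counts in C247S KI 5, the largest share, and 2.18% to 5.93% in the other libraries; the part of this in the Mx1 value was not tested. 

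Of the 5 genes of the ISG15 system and of ADP-ribosylation 0 passed with edgeR or limma-voom, and DESeq2 called Parp14 in KO against WT. Isg15, the ubiquitin-like modifier, averaged 5.95 ± 1.92, 6.28 ± 2.61 and 8.18 ± 2.59 CPM in WT, C247S KI and KO. Usp18, which removes ISG15 from proteins and blocks signalling at IFNAR2, had 13.6, 11.5, 23.8, 20.6 and 14.3 CPM in WT libraries, 13.3, 15.7, 13.6, 11.1 and 9.53 in C247S KI ones and 11.9, 15.2, 15.4, 13.6 and 24.3 in KO. Single libraries of WT and KO reached values near 24 CPM, and C247S KI had none above 15.7 (log2 -0.40 against WT, SE 0.22, edgeR adjusted p = 0.557). Parp14, a mono-ADP-ribosyltransferase, had 20.3, 18.7, 15.3, 14.7 and 23 CPM in WT libraries, 20.4, 23.3, 19, 19.4 and 21.4 in C247S KI ones and 24.3, 22.3, 24.6, 20 and 29.9 in KO. The KO libraries were mostly above WT with overlap (log2 0.40, SE 0.13, edgeR adjusted p = 0.0781). It passed with DESeq2 (0.40, adjusted p = 0.0462), with the replicate number as a block (edgeR adjusted p = 0.0345) and without WT 5 (0.50, 0.0337). Parp9 and its partner ligase Dtx3l, head-to-head genes that overlap on opposite strands, averaged 39.2 ± 7.61 and 36.8 ± 6.15 CPM in WT and 43.1 ± 2.89 and 40 ± 4.76 in KO. Of the 31-base words of Parp9 transcripts 8.54% also lie in Dtx3l, and without strand in the counting their reads could not be told apart there.

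The last 6 members, Ifi27, Ifi35, Ifi44, Rtp4, Xaf1 and Lgals3bp, had positive log2 fold changes in both KO comparisons without exception, from 0.07 to 0.68 against WT and from 0.10 to 0.70 against C247S KI, but 0 passed with edgeR. DESeq2 called Ifi27 and Ifi35 against WT, and both DESeq2 and limma-voom called Ifi35 and Rtp4 against C247S KI. Ifi35, an interferon-induced leucine zipper protein, had 21.9, 23.3, 29.8, 24.4 and 24.6 CPM in WT libraries, 22.3, 25, 32.4, 25.3 and 19.3 in C247S KI ones and 27.5, 35.6, 31.4, 35.3 and 36 in KO. KO libraries other than KO 1 lay above all WT libraries, and KO 5 was level with KO 2 and KO 4. Its log2 difference was 0.42 from both groups (SE 0.13 each, edgeR adjusted p = 0.0612 against WT and 0.0502 against C247S KI).

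Ifi27, a small hydrophobic protein of the interferon-alpha-inducible family, had 91.7, 67.4, 77.7, 63 and 62.5 CPM in WT libraries, 50.7, 91.2, 123, 90.7 and 63.3 in C247S KI ones and 82.3, 155, 95.2, 116 and 132 in KO. The log2 difference of KO from WT was 0.68 (SE 0.21, edgeR adjusted p = 0.064). Rtp4, a receptor transporter protein with antiviral activity, had 19.2, 9.74, 9.84, 8.66 and 9.31 CPM in WT libraries, 7.58, 12.3, 13.4, 9.33 and 8.77 in C247S KI ones and 11.9, 18.4, 16.1, 15.3 and 21.6 in KO. WT 1 was level with the KO libraries and the other WT libraries lay below all of them. Rtp4 had a log2 difference of 0.70 between KO and C247S KI (SE 0.22, edgeR adjusted p = 0.054) and of 0.56 between KO and WT (SE 0.22, edgeR adjusted p = 0.137), where it passed once WT 1 was left out. Lgals3bp had 54.2, 81.2, 68.5, 73.4 and 77.4 CPM in WT libraries, 63.7, 80.5, 74.8, 51.8 and 55.8 in C247S KI ones and 57.3, 81, 64.4, 69.2 and 101 in KO, a wide overlap apart from KO 5.

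The members tended to peak in the same library of a group. KO 5 was the highest of the 5 KO libraries for 31 of 38 members (81.6%, against 18.4% of all genes tested) and the highest of all 15 for 18 (47.4%, against 4.68%). It was the lowest KO library for 0. Its members lay a median of 0.54 above their 15-library mean on the log2 scale (all genes 0.01). Within WT, WT 1 was highest for 18 members (47.4%, all genes 29.4%), among them all 4 Ifit genes, Isg15 and Rtp4. Within C247S KI, C247S KI 2 was highest for 15 (39.5%, all genes 12.4%). WT 4 and KO 4 were highest for 0 members. KO 1 was the lowest KO library for 20 of 38 members, against 23.3% of all genes tested. The median within-group SD of log2 CPM of the members was 0.29, 0.33 and 0.33 for WT, C247S KI and KO, beside 0.276, 0.285 and 0.213 over all genes, so the members' excess was widest in KO. Because the genes peak together, their counts in a comparison are not independent of each other.

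**Figure D4:**
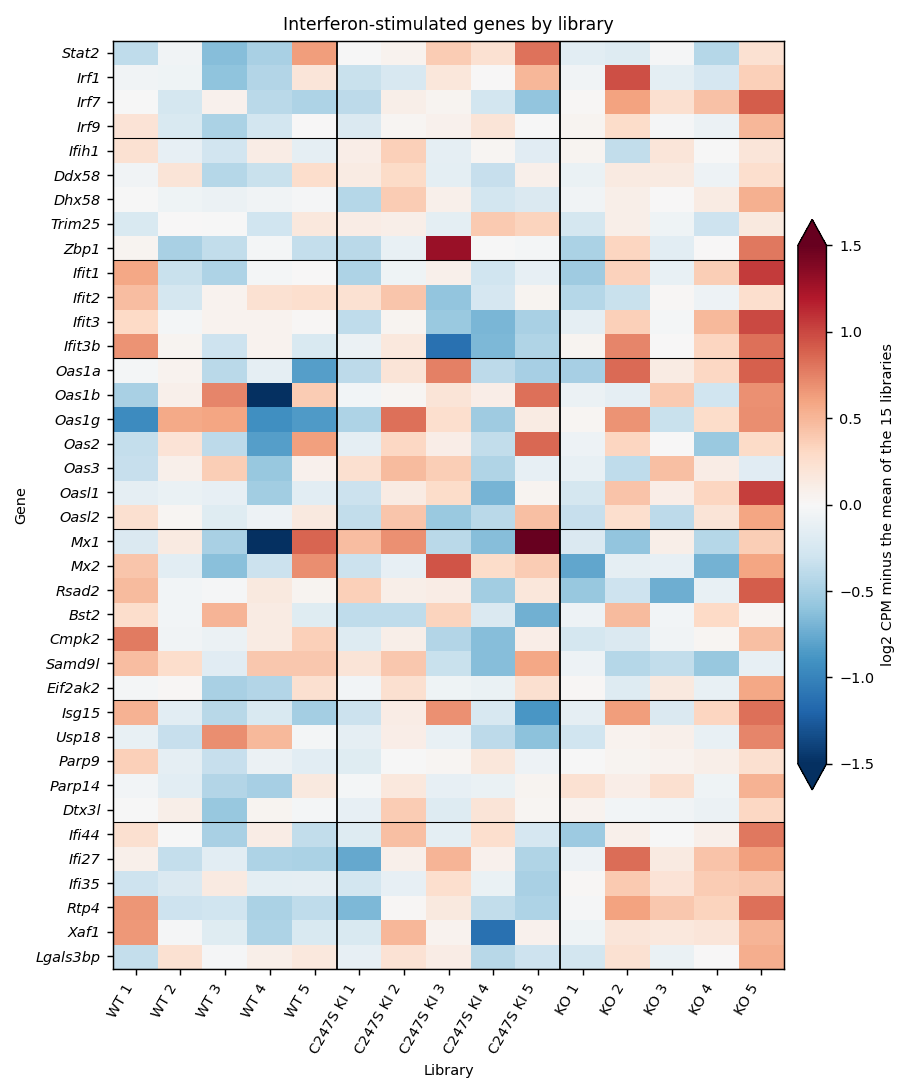
Log2 CPM of each member in each library minus its mean over the 15 libraries, with members in rows by role and genotypes separated by lines; colours stop at 1.5 in both directions. KO 5 is red for most rows, with a median of 0.54, and WT 1 is red for the Ifit genes, Isg15, Rtp4 and Xaf1.

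WT 5 and C247S KI 5 were each highest of their group for 9 members (23.7%), at or below the 24.2% and 28.7% of all genes.

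**Figure D5:**
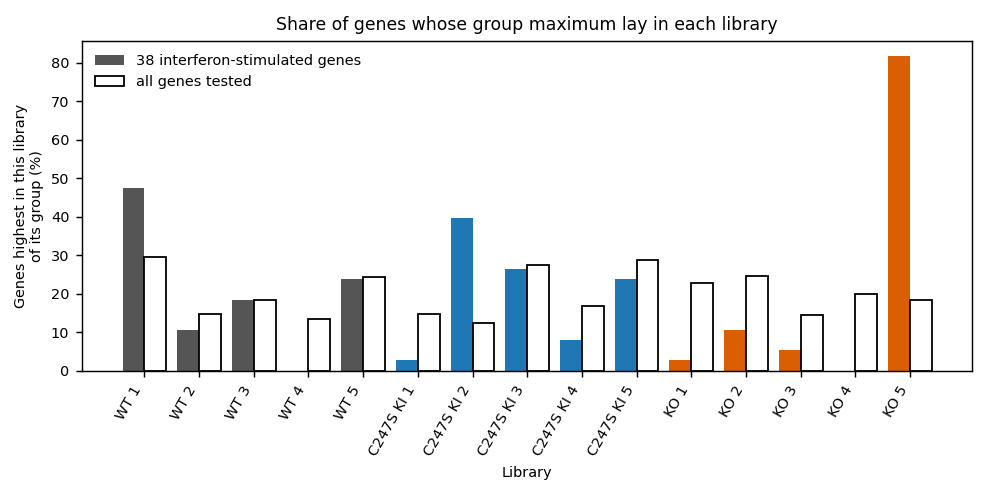
Share of the 38 members (filled bars) and of all genes tested (open bars) whose highest value within a genotype lay in each library. KO 5 held 81.6% of the members' maxima and 18.4% of all genes' maxima, while WT 4 and KO 4 held 0 of the members' maxima.

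KO 5 also stood apart in markers of some cell types, though not of all. Its summed neutrophil markers were 18.4 CPM against 126 to 187 in the other KO libraries, with all 5 markers at their KO minimum, and stellate cell and cholangiocyte markers summed to 116 CPM against 248 to 356, with 6 of 7 at the minimum. Kupffer cell and macrophage markers summed to 325 CPM against 94.7 to 219 (8 of 11 highest in KO 5) and sinusoidal endothelial markers to 245 against 144 to 213 (5 of 7 highest). Hepatocyte markers summed to 57246 CPM against 64386 to 78986, but only 3 of 8 were lowest in KO 5 and 1 was highest. Plasmacytoid dendritic cell markers (20.9 CPM against 16.4 to 22.4) and lymphocyte markers (5.9 against 4.62 to 7.62) lay inside the range of the other KO libraries. Over all genes tested, KO 5 was the highest KO library for 18.4% and the lowest for 20.7%. In bulk tissue more cells of a type and more RNA per cell cannot be told apart, and the part of these markers in the members' values was not tested. Without KO 5 the log2 difference of Irf7 was 0.54 against WT and 0.55 against C247S KI.

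By genotype, the summed markers overlapped for macrophages (144 to 367 CPM in WT, 73.1 to 182 in C247S KI, 94.7 to 325 in KO), neutrophils (62.7 to 225, 115 to 198 and 18.4 to 187), sinusoidal endothelium (113 to 292, 134 to 191 and 144 to 245), plasmacytoid dendritic cells (13.6 to 29.1, 18.8 to 27.1 and 16.4 to 22.4; Bst2 was left out of that list) and lymphocytes (4.39 to 14.1, 5.01 to 8.91 and 4.62 to 7.62). Hepatocyte markers, which define the labelled tissue, summed to 87330 to 105770 CPM in WT and 57246 to 78986 in KO with no overlap. In C247S KI they summed to 73562 to 123868 CPM and overlapped both groups. Alb and Fgb were the hepatocyte markers that passed, both lower in KO. Of 8 hepatocyte markers 1 passed in KO against WT and 2 against C247S KI. Of all genes, 6.75% and 10.3% passed in these comparisons, which is the background for the other marker lists too. Stellate and cholangiocyte markers did not overlap between WT (382 to 435) and KO (116 to 356) either. Taken singly, 9.6% of all genes separated WT from KO without overlap. C247S KI, at 282 to 400 CPM, overlapped both, and 0 of 7 of these markers passed in KO against WT. Of 11 macrophage markers Cx3cr1 passed, lower in KO against both groups, and Lyve1 and Pecam1 of 7 endothelial markers were lower in KO against WT, 1 of them also against C247S KI. Ms4a1, a B cell marker, was lower in KO against WT, and Sox9, of the stellate and cholangiocyte list, was lower in KO against C247S KI. No marker of any list was at 0 in all libraries, and the part of these differences in Irf7 and Ifit3 was not tested.

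The other genes of the pathway were read from lists of receptors, sensors, regulators and further targets. In C247S KI against WT 0 genes of any list passed with edgeR, DESeq2 or limma-voom; at an unadjusted p under 0.05 there were 1 of 12 sensing genes, 0 of 10 negative regulators, 4 of 48 further type I targets and 2 of 26 genes linked mainly to interferon gamma, where 9.85% of all genes had such a p. Among the receptors and their kinases Ifngr1, a chain of the interferon gamma receptor, did (log2 -0.19, edgeR adjusted p = 0.505). Ifngr1 fell in KO against WT (12.8 ± 0.535 against 17.7 ± 1.03 CPM, log2 -0.47, edgeR adjusted p = 0.0058). Ifnar1 and Ifnar2 did not pass, at 28.3 ± 1.66 and 63.5 ± 11.5 CPM in KO against 23.6 ± 2.24 and 57.6 ± 8.53 in WT.

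Upstream of interferon, 2 of 12 sensing genes passed in KO against WT, where 6.75% of all genes did. Irf3, the factor that first switches on the interferon beta gene, rose from 43.7 ± 3.38 to 59.8 ± 4.76 CPM (log2 0.45, edgeR adjusted p = 0.0194; 0.46 and 0.04 without KO 5), with no overlap between the groups. Irf8, a factor of macrophages and dendritic cells, fell from 10.7 ± 1.93 to 7.72 ± 0.484 CPM (log2 -0.47, edgeR adjusted p = 0.0439; -0.46 and 0.0833 without KO 5). Of these 12 genes 0 passed with edgeR in KO against C247S KI, where 5 had an unadjusted p under 0.05 and DESeq2 called 2 and limma-voom 1. Of 10 negative regulators 0 passed with edgeR, DESeq2 or limma-voom in either KO comparison, with 1 and 2 at an unadjusted p under 0.05. The nearest were Trex1, the nuclease that clears cytosolic DNA (log2 0.50 in KO against C247S KI, edgeR adjusted p = 0.0999), and Ptpn2, a phosphatase of JAK1 (-0.38, 0.0667).

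Of 48 further genes induced by type I interferon, 4 rose and 1 fell in each KO comparison, beside 6.75% of all genes that passed against WT and 10.3% against C247S KI. Without KO 5, 2 passed in each, Trim12c and Ifi27l2b. Apol9a and Apol9b, apolipoprotein L genes and near relatives whose reads may be shared, rose against WT by 0.98 and 0.81 (86.4 ± 24.7 against 43.8 ± 7.5 CPM, and 158 ± 31.6 against 90.1 ± 22.7; edgeR adjusted p = 0.0273 and 0.0317) and against C247S KI by 0.87 and 0.86 (0.0341 and 0.0181). Without KO 5 neither passed; their values were 0.83 and 0.73 against WT (0.0709 and 0.0818) and 0.72 and 0.78 against C247S KI (0.0888 and 0.05). Trim12c, of the TRIM family, rose by 0.61 and 0.63, and by 0.53 and 0.55 without KO 5 (edgeR adjusted p = 0.0494 and 0.0324). Pml, the organiser of nuclear bodies, rose against WT by 0.44 and Nmi, an interferon-inducible protein, against C247S KI by 0.52; without KO 5 the values were 0.41 and 0.51, and neither passed (edgeR adjusted p = 0.0978 and 0.0563). Ifi27l2b, a relative of Ifi27, fell by 2.47 on the log2 scale against WT (3.83 ± 1.66 against 21.3 ± 10.3 CPM, edgeR adjusted p = 0.00237) and by 1.77 against C247S KI (0.011), the opposite direction to the values of Ifi27. KO 5 was the highest KO library for 32 of these 48 genes, and for 18.4% of all genes tested. The median log2 fold change of the list was 0.14 and 0.13 in the KO comparisons, beside 0.19 and 0.17 for the 38 members.

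Of 26 genes linked mainly to interferon gamma, 2 rose in KO against WT and 2 rose and 1 fell against C247S KI, again beside 6.75% and 10.3% of all genes. Tap1, the peptide transporter of MHC class I loading, rose by 0.64 and 0.82 (38.6 ± 4.17 CPM in KO, 24.7 ± 2.55 in WT, 21.8 ± 3.57 in C247S KI; edgeR adjusted p = 0.00416 and 0.000438) and kept both calls without KO 5 (0.0132 and 0.00169). Irgm2, an immunity-related GTPase, rose against WT by 0.66 and Psmb9, an immunoproteasome subunit, against C247S KI by 0.54 (edgeR adjusted p = 0.0224 and 0.0296). Without KO 5 neither passed, at 0.56 and 0.51 (0.0669 and 0.069). Nlrc5, the transactivator of MHC class I genes, fell against C247S KI by 0.75 on the log2 scale (edgeR adjusted p = 0.0303). B2m, the light chain of MHC class I, did not pass (log2 -0.31 in KO against WT). The guanylate-binding protein genes Gbp2, Gbp3, Gbp5, Gbp6, Gbp7 and Gbp9 did not pass in any comparison, with log2 differences of KO from WT between -0.34 and 0.36. KO 5 was the highest KO library for 14 of the 26, beside 18.4% of all genes tested.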

How the data were processed

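The deposited table gives estimated counts per Ensembl transcript as whole numbers; Trimmomatic 0.39, kallisto 0.50.1, DESeq2 and mm10 are named in the submitters' processing notes, with no transcript set named in the sources used here. Because the authors deposited estimated counts, reads that fit several transcripts had been divided before deposit, which makes near copies uncertain. Of 115911 transcripts 114331 matched GENCODE M21 (GRCm38) by identifier without version, 13 with the same version, and were summed per gene symbol; the 1580 others (0.366% to 0.459% of counts) stayed out.

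Genes were kept with filterByExpr (minimum count 10, total 15), and all 15 libraries entered 1 edgeR 4.0.16 fit (R 4.3.3; TMM, quasi-likelihood test, Benjamini-Hochberg over 13916 genes, threshold 0.05). CPM are scaled by TMM factors; log2 CPM used a prior count of 2. The code was tested on simulated counts. No source used here gives the strand setting of the counting. Libraries of a group differed beyond sampling noise, so none was a copy. Libraries with the same title replicate number did not deviate together (r over 0.1 in 4 of 15 pairs), so the numbers were not taken as pairs.

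The members, gene lists and marker lists were chosen with earlier results of these data known. Values in every library are given for called members, the lowest p up to 6 per comparison, the 3 highest in TPM, the 3 widest in spread and the near copies; from other lists called genes, or the 2 lowest p, with Ifnar1, Ifnar2, B2m and the Gbp genes added after their values were seen. Alternatives were DESeq2 1.42.0, limma-voom (limma 3.58.1), RLE factors, other filters, only 2 groups, a replicate block, protein-coding transcripts only, near copies summed, and libraries left out. A gene of the receptor list is not reported here.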

Additional observations from a re-analysis of the deposited data

Results flagged for a closer look

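In 7 of 114 groups of 5 libraries (38 members in 3 genotypes) a single library lay far from the other 4 for its spread; chance alone would give about 1 in 20, or 5.7. In WT 1, Ifit3 was 14.7 CPM beside 11.7 to 12.4 in the other WT libraries, and Rtp4 was 19.2 beside 8.66 to 9.84. WT 4 was low for Oasl1, at 6.06 CPM beside 7.83 to 8.14, and WT 3 for Dtx3l, at 26 beside 38 to 41.2. Among C247S KI libraries, Oas1b was 3.51 CPM in C247S KI 5 beside 1.87 to 2.22, and Zbp1 was 10 in C247S KI 3 beside 3 to 3.99. KO 5 was high for Dhx58, at 16.2 CPM beside 10.8 to 12.1. The flag sets the gap to the nearest library against the range of the group, and no other KO 5 value was flagged. In CPM some stood farther off, such as Rsad2 at 22.2 with 10.9 in the next KO library. Oasl1 stood at 18 CPM with 11.7 in the next.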

How the results depend on the processing

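In C247S KI against WT 0 members passed under all 26 alternatives. Members called in KO against WT were 1 in the reported fit, 5 with DESeq2, 4 with only the 2 groups, 0 with protein-coding transcripts only, 4 without WT 1, C247S KI 3 and C247S KI 5, 3 without these and KO 5 (added after seeing the data), and 0 to 4 with 1 library left out. In KO against C247S KI they were 2 (10.3%), and 5 with DESeq2 (7.67%), 4 with limma-voom (9.69%) and 1 without those 4 libraries (8.51%). With 1 library left out they were 1 to 6 (5.56% to 16.1%). The 6 came without C247S KI 3, where 16.1% of all genes passed. With the replicate block 4 members passed in KO against WT, namely Ifi35, Irf7, Parp14 and Samd9l (7.52% of all genes). Against C247S KI 4 passed as well, namely Ifi35, Ifit3, Ifit3b and Irf7 (11.5% of all genes), and 0 did in C247S KI against WT. Same-numbered libraries correlated from -0.141 to 0.381, and 1 library correlated best with its own number in both other groups. Without WT 1, C247S KI 3, C247S KI 5 and KO 5, edgeR adjusted p was 0.106 for Ifit3 and 0.0785 for Irf7 in KO against C247S KI, and Rtp4 was the member that passed. Over 18 named differences and 467 values under alternatives, 410 kept direction and side of the threshold, 11 lost the call, 46 gained it and 0 reversed. Over all genes, calls in C247S KI against WT were 12, and 65 with DESeq2, 20 without a count filter, 6 with the replicate block and 6 with only the 2 groups; in KO against WT they were 939, and 1493 with DESeq2, 1542 without the 3 libraries and 521 to 1259 with 1 library left out; in KO against C247S KI 1427, and 784 to 2272 with 1 left out. The cause of these shifts was not tested. Members under 3 CPM, such as Oas1b, Oas1g, Oas3 and Ifi44, rest on few counts per library, and small differences in them were not detectable at this depth.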
